A study of Mus musculus with 6 samples.

Results

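The chemokine genes Ccl3, Ccl4, Ccl5 and Xcl1 and the receptor genes Ccr1 and Xcr1 were followed through single-cell RNA-seq of immune cells from mice with ovarian tumors. The 6 genes were picked by symbol from the 32285 genes in the files, and all 6 were measured. Their unique molecular identifiers (UMIs, each standing for 1 captured mRNA molecule) were summed per library and cell class. CCL3 (MIP-1α), CCL4 (MIP-1β) and CCL5 (RANTES) are secreted proteins of the CC family that attract and activate leukocytes. CCR1 is a receptor of CCL3 and CCL5. XCL1 (lymphotactin) has a single known receptor, XCR1, which marks the type 1 dendritic cells that cross-present antigen to CD8 T cells. Activated NK and T cells release XCL1 together with CCL3, CCL4 and CCL5, and in tumors this release is known for bringing type 1 dendritic cells close to them.

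The study asked whether blocking glycan synthesis makes HR-proficient ovarian tumors respond to a checkpoint antibody. There were 6 libraries, each from 1 mouse: a control, anti-PD-L1 alone, 2DG alone, 2DG plus anti-PD-L1, 2FF alone and 2FF plus anti-PD-L1. 2DG (2-deoxy-D-glucose) is a glucose analogue that blocks glycolysis and N-glycan synthesis, 2FF (2F-peracetyl-fucose) is an inhibitor of fucosylation, and anti-PD-L1 blocks the ligand of the checkpoint receptor PD-1. By the study's methods all mice were female C57BL/6 mice of 6 to 8 weeks that carried orthotopic tumors of KPCA, 1 mouse ovarian cancer line, and the controls received solvent and rat IgG. 2DG was injected every 2 days from day 9, 2FF was given by gavage every 2 days to mice whose tumor cells had been pre-treated for 3 days, anti-PD-L1 was given for 3 weeks, and tumors were taken on day 30. The labels call the tissue lymph node, and the series text also speaks of aged mice. Among the 51633 cells that passed the filters, the lymph node stroma genes Ccl21a, Madcam1, Ccl19 and Glycam1 had a UMI in 1, 5, 13 and 7 cells, and Cxcl13 and Lyve1 in 93 and 91. Cr2, of the same list, had a UMI in 655 cells and was found most often in B cells (34.5% of them). The libraries held 0 to 11 cells gated as epithelial or tumor cells, so the values below are those of immune cells.

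The libraries held 61859753 to 73885214 UMIs and 7703 to 9222 cells that passed (at least 250 genes and at most 5% mitochondrial UMIs). Cells were put into classes by marker genes that did not include the 6 genes, and 10.2% to 13.4% of them stayed ungated in each library. The control library stood apart in its makeup. Kept throughout is the order control, anti-PD-L1 alone, 2DG alone, 2DG plus anti-PD-L1, 2FF alone and 2FF plus anti-PD-L1. In this order there were 124, 1694, 1400, 1788, 2083 and 1154 CD8 T cells, 23, 281, 277, 424, 167 and 221 NK cells, 3321, 285, 347, 272, 500 and 356 neutrophils, 2523, 1974, 1073, 1916, 1679 and 2213 monocytes, 1130, 1210, 1279, 1508, 1863 and 1496 macrophages and 76, 87, 127, 47, 69 and 50 type 1 dendritic cells. Any pair of libraries shared 16 to 34 cell barcodes. Levels are given as CPM, the gene's UMIs scaled to a common total of UMIs of the class in that library. Each value of the control's NK cells therefore rests on 23 cells.

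Ccl3 (chr11:83647844-83649355, minus strand, GRCm38) and Ccl4 (chr11:83662584-83664683, plus strand) are neighbours with 13228 bases between them, and Ccl5 (chr11:83525778-83530518, minus strand) lies 117325 bases from Ccl3. Xcl1 (chr1:164931644-164935527, minus strand) lies elsewhere and is overlapped by the annotated gene Gm20743. The receptors Xcr1 (chr9:123852315-123862029, minus strand) and Ccr1 (chr9:123962124-123968692, minus strand) are neighbours with 100094 bases between them. The promoters of 4 of the 6 genes (250 bases before and 50 after the RefSeq start, GRCm38.p6, all on the minus strand and written 5′ to 3′) are shown. No promoter sequence was at hand for Ccl4 and Ccl5. The class with the highest level differed between Ccl3 and Xcl1, and likewise between Ccr1 and Xcr1. Capitals mark matches on either strand to 6 short motifs. The TATA box was searched as TATAAA, and the core bound by NFAT factors was searched as GGAAA. The AP-1 site was searched as TGANTCA, and the site of RUNX factors was searched as TGTGGT. The core of T-box factors was searched as GGTGTGA, and that of ETS factors such as PU.1 was searched as GGAAGT. They span chr11:83649329-83649628, chr1:164935473-164935772, chr9:123968643-123968942 and chr9:123861980-123862279.
Ccl3: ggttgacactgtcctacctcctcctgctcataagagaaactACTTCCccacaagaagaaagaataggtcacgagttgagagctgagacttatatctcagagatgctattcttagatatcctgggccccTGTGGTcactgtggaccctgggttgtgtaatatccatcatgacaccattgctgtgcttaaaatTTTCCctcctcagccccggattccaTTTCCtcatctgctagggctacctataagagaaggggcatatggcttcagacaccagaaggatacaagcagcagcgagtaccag
Xcl1: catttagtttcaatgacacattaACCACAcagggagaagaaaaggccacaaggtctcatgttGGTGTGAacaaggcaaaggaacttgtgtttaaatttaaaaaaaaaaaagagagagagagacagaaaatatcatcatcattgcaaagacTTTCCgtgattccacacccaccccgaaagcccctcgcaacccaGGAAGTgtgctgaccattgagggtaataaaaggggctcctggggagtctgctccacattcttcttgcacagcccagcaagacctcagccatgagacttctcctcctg
Ccr1: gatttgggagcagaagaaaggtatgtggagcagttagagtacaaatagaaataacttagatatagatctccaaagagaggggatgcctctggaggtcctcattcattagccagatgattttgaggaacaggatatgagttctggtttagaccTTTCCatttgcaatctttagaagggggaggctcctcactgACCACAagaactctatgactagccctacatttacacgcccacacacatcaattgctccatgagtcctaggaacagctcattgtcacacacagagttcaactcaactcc
Xcr1: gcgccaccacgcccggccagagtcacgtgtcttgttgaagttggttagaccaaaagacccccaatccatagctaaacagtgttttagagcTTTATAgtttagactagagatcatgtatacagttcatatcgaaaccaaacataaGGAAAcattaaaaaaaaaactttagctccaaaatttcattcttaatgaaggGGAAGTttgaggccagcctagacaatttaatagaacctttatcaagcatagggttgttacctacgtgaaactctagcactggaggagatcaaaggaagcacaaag
GGTGTGA, the core bound by T-bet and Eomes, was present in the Xcl1 promoter at position -188 from the start and in 3.98% of 32851 RefSeq promoters of this length. TATAAA was present in the Xcr1 promoter, on the opposite strand, and in 13.6% of all promoters. GGAAA was found in all 4 promoters and in 61.3% of all promoters. TGTGGT was found in those of Ccl3, Xcl1 and Ccr1 (16.8% of all), GGAAGT in those of Ccl3, Xcl1 and Xcr1 (23.8% of all), and TGANTCA in none of the 4 (7.81% of all).

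Ccl3 was highest in neutrophils in the control and in the treated libraries. In the treated libraries NK, CD8 T and conventional CD4 T cells stood above monocytes and macrophages. In the control they stood below monocytes and non-classical monocytes (419 CPM). Its level in neutrophils was 2812, 1637, 794, 2341, 1829 and 2062 CPM. The level in CD8 T cells was 195, 336, 345, 652, 671 and 610.0 CPM, and in NK cells 156, 534, 312, 735, 657 and 769.8 CPM. Conventional CD4 T cells, those without Foxp3, had 288, 499, 437, 1102, 828 and 705 CPM. The neutrophil level was above that of each of these lymphocyte classes in all 6 libraries. Monocytes had 383, 119.8, 82.0, 228, 129 and 207 CPM and macrophages 285, 102, 96.4, 185, 117 and 159.8 CPM, so that in both the control stood above the 5 treated libraries. B cells, not known as a main source, had 6.35 to 53.6 CPM.

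Against macrophages, the neutrophil level of Ccl3 was higher in edgeR's quasi-likelihood test with Benjamini-Hochberg adjustment, blocked on library (log2 fold change 4.0, SE 0.16, adjusted p = 3.82e-10). In that contrast 28.5% of genes were higher in neutrophils and 39.9% higher in macrophages, and the median over all genes was -0.25. Ccl3 was also higher in CD8 T cells than in macrophages (log2 fold change 1.43, SE 0.32, adjusted p = 0.00221), with 40.4% of genes called higher in CD8 T cells and 40.5% higher in macrophages. In the control alone the order was the other way, at 195 CPM in CD8 T cells and 285 CPM in macrophages. It was lower in CD8 T cells than in conventional CD4 T cells (log2 fold change -0.42, SE 0.07, adjusted p = 0.000733), where 14.4% of genes were called higher in CD8 T cells and 14.9% higher in CD4 T cells. NK cells were above CD8 T cells by a log2 fold change of 0.28 (SE 0.10, adjusted p = 0.03), a call that was lost when 1 of 3 libraries was left out (anti-PD-L1 alone or either of the combinations), with adjusted p between 0.079 and 0.13 in edgeR. Here 24.4% of genes were called higher in NK cells and 24.2% higher in CD8 T cells. Monocytes were above macrophages by 0.37 (SE 0.10, adjusted p = 0.01), with 28.0% of genes higher in monocytes and 29.4% higher in macrophages.

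Ccl4 followed Ccl3 in its leading classes, but its level was spread more evenly over lymphocytes and phagocytes. Neutrophils had 2138, 3170.1, 956, 2549.6, 3193 and 3630.1 CPM and NK cells 629.8, 2215, 1625, 3611, 2880.0 and 3031 CPM. CD8 T cells had 777, 1088, 1208, 2051, 2088 and 1685 CPM and conventional CD4 T cells 379, 885, 695, 1801, 1618 and 1337 CPM. Neutrophils and NK cells overlapped, with neutrophils above NK cells in 4 of 6 libraries, and NK cells were above CD8 T cells in 5 of 6, all but the control. Macrophages had 499, 437, 612, 1133, 1028 and 966 CPM and monocytes 585, 424, 419, 1179.6, 821 and 1191 CPM, and neither class was above the other in more than 3 libraries. B cells had 44.5 to 125 CPM. In edgeR's test, Ccl4 was higher in NK than in CD8 T cells by a log2 fold change of 0.71 (SE 0.12, adjusted p = 0.000212) and higher in CD8 T than in conventional CD4 T cells by 0.51 (SE 0.10, adjusted p = 0.00266). It was higher in CD8 T cells than in macrophages by 0.74 (SE 0.09, adjusted p = 3.78e-05) and higher in neutrophils than in macrophages by 2.11 (SE 0.26, adjusted p = 9.33e-06). Monocytes and macrophages differed by 0.10 (SE 0.12, adjusted p = 0.51), which did not pass the test.

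Ccl5, which T cells are known to make late after activation, was highest by median in NK and CD8 T cells. NK cells had 6370.2, 8108, 7523, 8082, 5863 and 8029 CPM and CD8 T cells 4545, 5999, 6651, 8330.5, 8038 and 5559.8 CPM. The 2 ranges overlapped, and NK cells were above CD8 T cells in 4 of 6 libraries. Mature dendritic cells, the Ccr7+ cells that migrate to lymph nodes, had 2879, 2496, 3367, 3359.7, 2500.0 and 2859.9 CPM, and their range did not overlap that of CD8 T cells. Conventional CD4 T cells had 2971, 2974, 4788, 2511, 2127 and 1917 CPM, and Foxp3+ regulatory T cells 532 to 880.1 CPM. In macrophages the level was 96.6, 478, 539, 1166, 991 and 601 CPM and in neutrophils 26.4, 227, 225, 147, 386 and 137 CPM, and in both the control was the lowest library. B cells had 16.3, 200.1, 82.5, 156, 228 and 47.9 CPM, and macrophages stood above B cells in all 6 libraries. In edgeR's test Ccl5 was higher in CD8 T cells than in macrophages by a log2 fold change of 3.41 (SE 0.32, adjusted p = 4.52e-06) and than in conventional CD4 T cells by 1.25 (SE 0.17, adjusted p = 0.000209). The difference between NK and CD8 T cells was 0.29 (SE 0.10, adjusted p = 0.032), a call that was lost without the control, 2DG, anti-PD-L1 or 2FF plus anti-PD-L1 library (adjusted p 0.060 to 0.15). Neutrophils and monocytes were below macrophages by -1.37 (SE 0.22, adjusted p = 0.000109) and -0.77 (SE 0.10, adjusted p = 0.000158).

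Xcl1 was a transcript of NK cells and of T cells other than regulatory T cells. NK cells had 168, 129.6, 171, 150.4, 381 and 137 CPM, CD8 T cells 40.7, 68.0, 97.6, 45.3, 121 and 127 CPM and conventional CD4 T cells 19.0, 25.1, 36.8, 10.9, 105 and 39.6 CPM. NK cells were above CD8 T cells in all 6 libraries, and the 2FF library held the highest NK value, whose log2 ratio to the control turned from 1.16 to -0.16 when 1 more marker was asked of each cell, which left 17 NK cells in the control. With 2FF alone, 1 NK cell held 156 of the 385 Xcl1 UMIs of its class. In the same library 1 conventional CD4 T cell held 142 of the 317 of its class. T cells outside the CD8, conventional CD4 and regulatory classes had 52.4 to 193 CPM. They had no CD4, CD8 or Foxp3 transcript, or had CD8 beside CD4 or Foxp3. Their highest value, 193 CPM, was that of the control, where 53 of 81 UMIs came from 1 cell. Regulatory T cells had 0.593 to 6.06 CPM in the 5 treated libraries. Macrophages had 0.212 to 4.24 CPM. In B cells no UMI was counted in the control and 2DG libraries, where 3 UMIs would be 6.99 and 3.81 CPM, and the others had 0.80 (anti-PD-L1), 1.63 (2FF), 0.39 (2DG plus anti-PD-L1) and 43.2 CPM (2FF plus anti-PD-L1). Of the 64 UMIs behind that last value, 62 came from 1 cell. In edgeR's test Xcl1 was higher in NK than in CD8 T cells by a log2 fold change of 1.22 (SE 0.18, adjusted p = 5.37e-05) and higher in CD8 T cells than in conventional CD4 T cells by 1.24 (SE 0.19, adjusted p = 0.000569) and than in macrophages by 5.63 (SE 0.28, adjusted p = 4.33e-08).

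Few cells held most of the Xcl1. A UMI of Xcl1 was found in 15.9 to 30.4% of NK cells, 5.76 to 10.4% of CD8 T cells and 0% to 1.4% of B cells. When each cell was thinned to 1000 UMIs, the shares were 6.21 to 12.4% of NK cells, 1.97 to 3.54% of CD8 T cells and 0% to 0.62% of B cells. At 0 cells, the 85 and 129 B cells of the control and 2DG libraries allow shares of cells with a UMI of up to 3.53% and 2.33% (3 cells of the total). Median depths of these classes were 4715 to 7603, 5988 to 8062 and 4578 to 6118 UMIs per cell. The 5% of NK cells with the most Xcl1 held 58.1 to 83.2% of the class's Xcl1, and in CD8 T cells this share was 93.8 to 97.7%. For Ccl5 the shares held by such cells were 14.7 to 25.6% and 22.5 to 27.4%. Thinned to 1000 UMIs, 84.9 to 93.6% of NK cells, 74.6 to 85.5% of CD8 T cells and 1.57 to 8.0% of B cells had Ccl5 (unthinned 91.3 to 98.2%, 87.9 to 95.6% and 3.53 to 25.7%).

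Ccr1, the receptor for CCL3 and CCL5, was a myeloid transcript. Neutrophils had 1103, 730.1, 688, 905, 893 and 1161 CPM, monocytes 509.7, 269, 267, 398, 374 and 522 CPM, macrophages 311, 242, 261, 345, 349.5 and 395 CPM and type 2 dendritic cells 217, 137, 90.1, 135, 121 and 155 CPM. The neutrophil range did not overlap the monocyte range, monocytes were above macrophages in all 6 libraries, and the macrophage range did not overlap that of type 2 dendritic cells. CD8 T cells had 9.65 to 23.6 CPM and B cells 19.2 to 41.9 CPM. In edgeR's test Ccr1 was higher in neutrophils and in monocytes than in macrophages by log2 fold changes of 1.91 (SE 0.13, adjusted p = 5.64e-08) and 0.42 (SE 0.11, adjusted p = 0.00895), and lower in CD8 T cells than in macrophages by -4.47 (SE 0.11, adjusted p = 4.61e-10). Thus the class with the highest Ccr1 was also the class with the highest Ccl3 by median.

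Xcr1, the receptor of XCL1, was found in type 1 dendritic cells, whose gate did not use it. They had 526, 448, 441, 280.1, 421 and 324 CPM, with a UMI in 90.8, 70.1, 78.7, 51.1, 68.1 and 64.0% of cells. The exact 95% interval of the highest share, in the control, was 81.9% to 96.2%, and that of the lowest, with 2DG plus anti-PD-L1, 36.1% to 65.9%. Thinned to 1000 UMIs, the shares were 37.3, 28.4, 31.2, 16.6, 26.5 and 19.8%, while up to 0.066% of B cells had a UMI (unthinned, up to 0.47%), and median depths of type 1 dendritic cells were 11819 to 20565 UMIs. The next class by median, conventional CD4 T cells, had 1.73 to 9.06 CPM. Against type 2 dendritic cells the log2 fold change was 8.80 (SE 0.17, adjusted p = 2.93e-11) in edgeR's test, in which 20.9% of genes were called higher in type 1 and 21.5% higher in type 2 dendritic cells. Ccr1, Ccl3 and Ccl4 were lower in type 1 than in type 2 dendritic cells, by -2.48 (SE 0.22, adjusted p = 3.17e-06), -0.88 (SE 0.26, adjusted p = 0.018) and -1.02 (SE 0.18, adjusted p = 0.000641), and the call for Ccl3 was lost without the control library (adjusted p = 0.087). The 2 libraries with the lowest Xcr1, those of the combinations, also had the lowest Clec9a, an uptake receptor of these cells that was a gate marker. Clec9a was at 475, 438, 478, 303, 503 and 338 CPM, and the sum over the 8 gate markers was 6413, 7314, 6519, 5219, 6357 and 5685 CPM. The part of gating in the Xcr1 values was not tested.

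**Figure D1:**
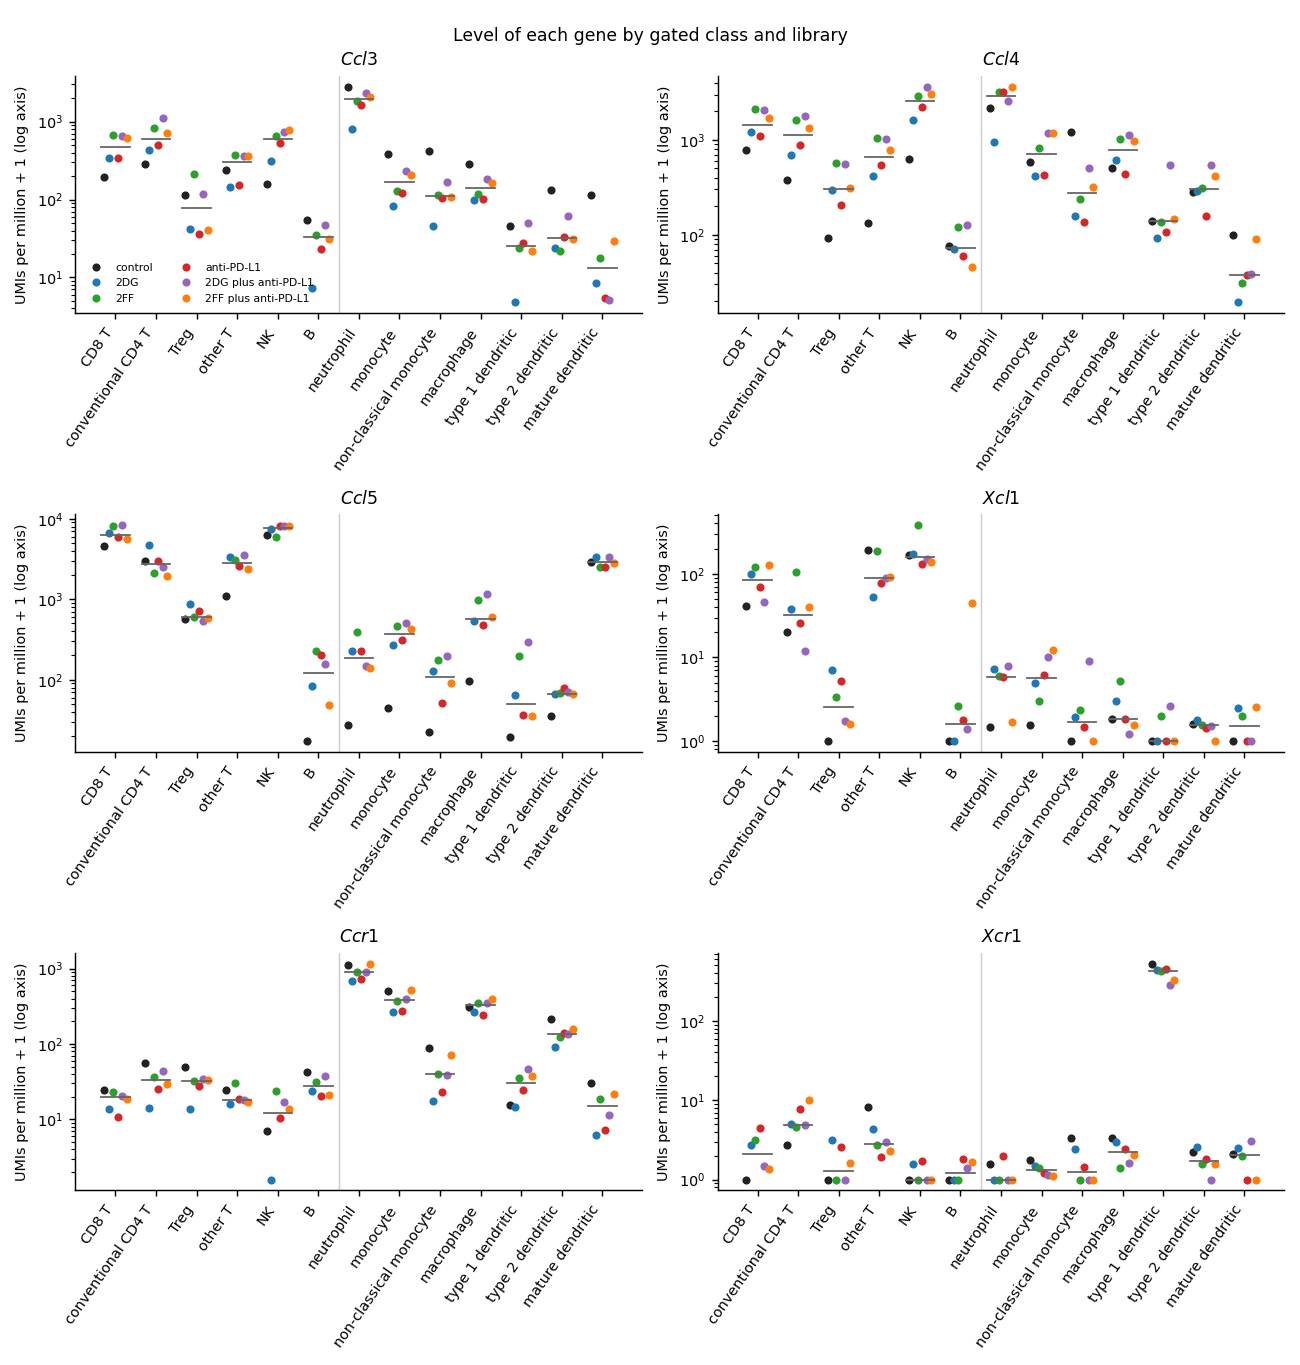
Each panel plots 1 gene, with CPM plus 1 on a log axis against cell class. Points are libraries with at least 20 cells of the class and lines are medians. Ccl3 is highest by median in neutrophils, Ccl5 and Xcl1 in NK cells, Ccr1 in neutrophils and Xcr1 in type 1 dendritic cells.

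To compare lymphoid with myeloid sources, all lymphoid and all myeloid cells of a library were summed. Plasmacytoid dendritic cells, 6 to 37 per library, were in neither sum. For Ccl3 the lymphoid sums were 191, 303, 287, 588, 580.0 and 523 CPM and the myeloid sums 1052, 152, 105, 245, 188 and 247 CPM. The lymphoid level was thus the lower in the control and the higher in the 5 treated libraries. With each class weighted equally it was also the lower with anti-PD-L1 alone, by a log2 ratio of -0.14. In edgeR's test the difference did not pass (log2 fold change 0.52, SE 0.53, adjusted p = 0.39), and without the control it was 1.0 (adjusted p = 1.90e-05). In the control, 3321 of 7319 myeloid cells were neutrophils, and they held most of the Ccl3 UMIs. For Ccl4 the sums were 366, 930.2, 881, 1772, 1712 and 1416 CPM and 998, 455, 451, 1089.9, 942 and 1100.3 CPM. The lymphoid level was again the lower only in the control, and the log2 fold change was 0.14 (SE 0.34, adjusted p = 0.71), against 0.51 (adjusted p = 0.00264) without the control. Ccl5 and Xcl1 were higher in lymphoid cells, by 3.11 (SE 0.21, adjusted p = 1.64e-06) and 4.29 (SE 0.30, adjusted p = 1.93e-06), and Ccr1 and Xcr1 were lower in them, by -4.34 (SE 0.12, adjusted p = 8.01e-09) and -3.09 (SE 0.22, adjusted p = 2.01e-06). Over all genes tested, 39.0% were higher in lymphoid and 40.1% higher in myeloid cells, so the 4 of 6 members called are near the share of all genes called.

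The classes that held the molecules of Ccl3 and Ccl4 differed between the control and the treated libraries. The control's lymphoid share of Xcl1 and its type 1 dendritic share of Xcr1 lay within the treated ranges. Among lymphoid classes, however, CD8 T cells held 18.0% of Xcl1 in the control and 40.1% to 61.1% in the treated libraries. In the control, 69.9% of 70957 Ccl3 UMIs were in neutrophils, 13.7% in monocytes and 1.04% in lymphoid cells. In the treated libraries, neutrophils held 8.44% to 14.4%, CD8 T cells 30.4% to 44.4%, conventional CD4 T cells 9.83% to 20.4% and all lymphoid cells 48.8% to 64.9% of Ccl3. Lymphoid cells held 2.08% of Ccl4 in the control and 36.6% to 56.2% in the treated libraries. For Ccl5 they held 59.3% in the control, where mature dendritic cells held another 16.6%, and 76.7% to 86.6% in the treated libraries, where mature dendritic cells held 0.94% to 3.43%. The lymphoid share of Xcl1 was 80.1% in the control and 79.3% to 92.5% elsewhere, and that of Ccr1 was 0.365% and 2.01% to 4.34%. Type 1 dendritic cells held 78.8% of Xcr1 in the control and 73.7% to 84.6% in the treated libraries. In the same libraries lymphoid cells numbered 545, 3321, 3291, 3718, 3602 and 2403 and myeloid cells 7319, 4274, 3477, 4332, 4650 and 4542.

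**Figure D2:**
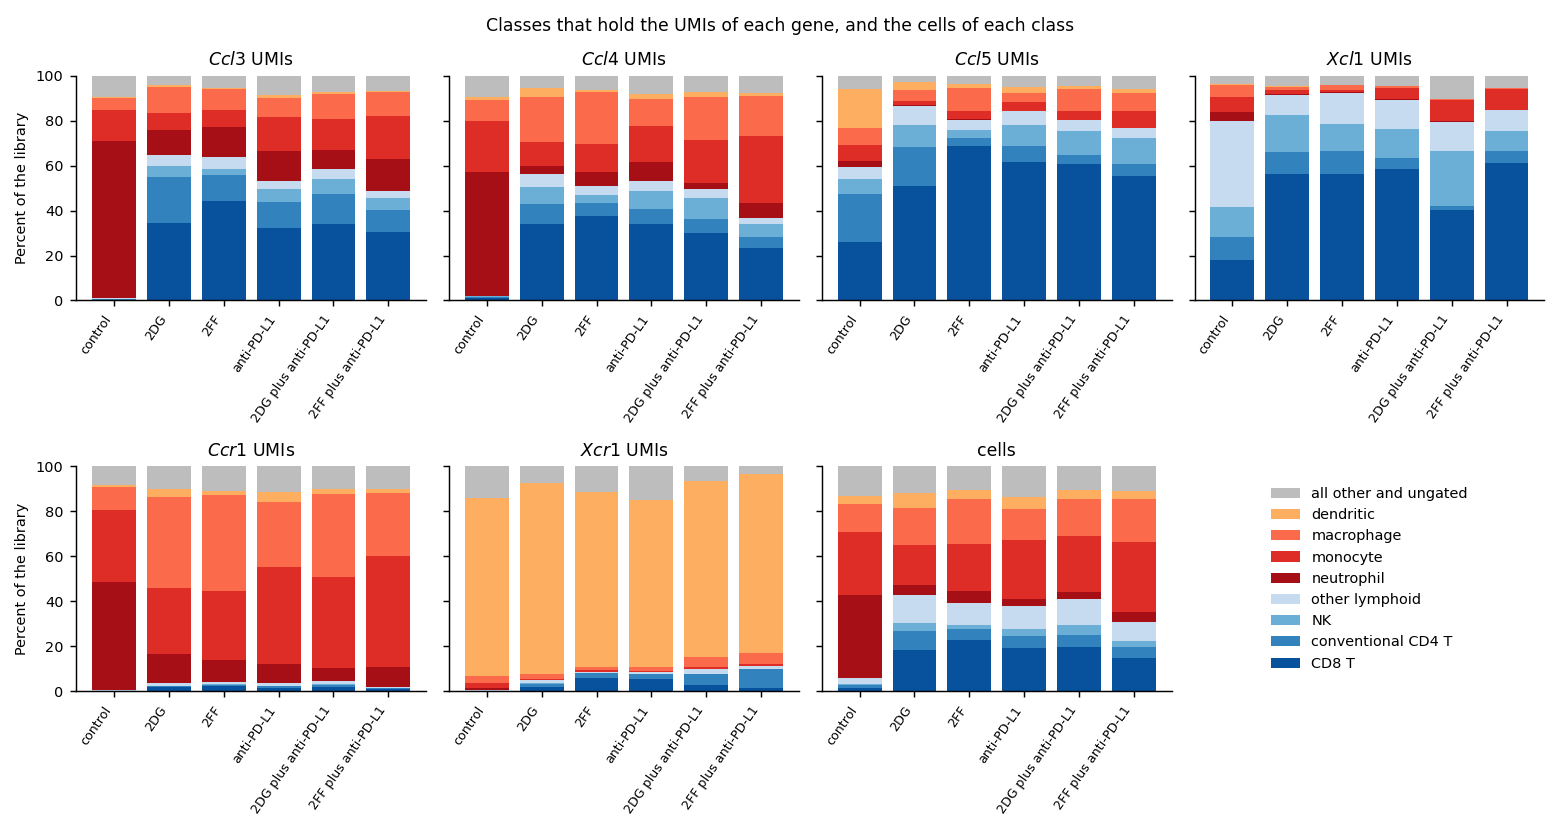
Stacked bars give the percentage of each gene's UMIs, and of cells, found in each class in each of the 6 libraries. Neutrophils hold 69.9% of Ccl3 in the control and 8.44% to 14.4% in the treated libraries.

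Over all cells of a library, Ccl3 was at 982, 204, 172, 378, 323 and 321 CPM, which is 7.82, 1.42, 1.34, 2.66, 2.41 and 2.74 UMIs per cell. When each class's UMIs per cell were weighted by the control's class shares, the values became 1.68 to 4.27 UMIs per cell in the treated libraries and 7.83 in the control, so the control stayed highest with class numbers held equal. Depth was not held equal in these values. Median depth was 3799 UMIs in the control's neutrophils and 10328 in its monocytes, against 2526.5 to 3144.5 and 6626.5 to 8158 in the treated libraries. The part of depth in the Ccl3 difference was not tested. Ccl5 was at 223, 1921, 2236, 2712, 2506 and 1602 CPM over all cells. At the control's class shares it was 3.49 to 5.38 UMIs per cell in the treated libraries and 1.78 in the control, against 13.3 to 19.1 and 1.78 as measured. Xcl1 was at 2.92, 22.8, 29.9, 22.3, 45.9 and 33.3 CPM and Ccr1 at 557, 143, 129.8, 208, 215 and 300.04 CPM over all cells, so that the library with the most Ccr1 had the least Xcl1 and Ccl5. From such whole-library values alone, fewer cells of a type and less RNA per cell cannot be told apart. At the control's class shares, Xcl1 was 0.040 to 0.078 UMIs per cell in the treated libraries and 0.023 in the control. As measured it was 0.157 to 0.343 and 0.023. Ccr1 was 1.89 to 3.84 and 4.44 at these shares, against 0.99 to 2.56 and 4.44 as measured.

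Within CD8 T cells the 4 chemokines did not go together. Havcr2 encodes TIM-3, an inhibitory receptor of effector and exhausted cells, and Tcf7 encodes TCF1, a factor of naive, memory and stem-like cells. Ccl3 was at 218, 425, 519, 896, 879.5 and 775 CPM in cells with Havcr2 and at 172, 109, 43.0, 56.9, 29.6 and 18.3 CPM in cells with Tcf7 and no Havcr2. The control's Tcf7 value rests on 20 cells. Cells with Havcr2 were higher in all 6 libraries, and in edgeR's test the log2 fold change was 3.44 (SE 0.42, adjusted p = 3.76e-05). Ccl4 and Ccl5 were also higher with Havcr2, by 2.21 (SE 0.24, adjusted p = 1.51e-05) and 1.57 (SE 0.10, adjusted p = 8.47e-08). In this contrast 16.3% of genes were called higher with Havcr2 and 18.0% higher with Tcf7.

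Xcl1 went the other way. It was at 50.6, 58.9, 66.8, 38.2, 81.4 and 61.4 CPM with Havcr2 and at 18.5, 64.0, 159.5, 63.7, 202 and 302 CPM with Tcf7. With 2DG alone, 1 of the Tcf7 cells held 105 of their 219 UMIs, and 1 of the Havcr2 cells held 99 of 362. With anti-PD-L1 alone the levels were close, at 58.9 and 64.0 CPM. In the 5 treated libraries the Tcf7 cells were higher, and in the control, where the Tcf7 cells held 3 UMIs, they were lower. The log2 fold change was -1.24 (SE 0.24, adjusted p = 0.0014) in edgeR's test and -0.92 (adjusted p = 0.081) in DESeq2. Cells with neither transcript lay between the others for Ccl3 in 5 of 6 libraries. Cells were put into subsets by single UMIs, so a cell without a UMI of Havcr2 may still express it.

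**Figure D3:**
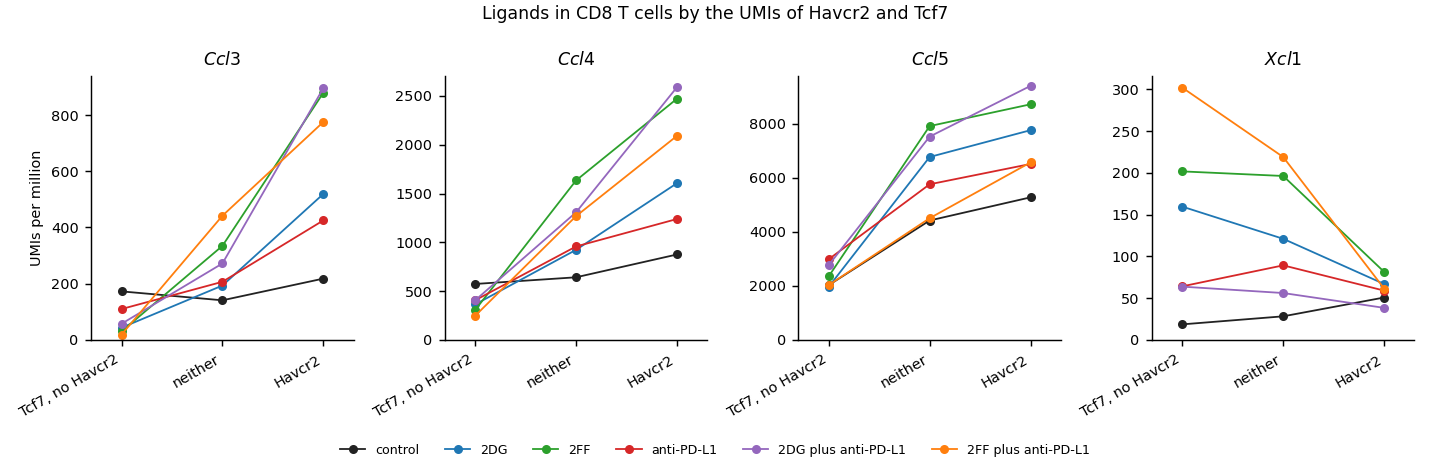
Each panel plots 1 ligand, with CPM on a linear axis in CD8 T cells with Tcf7 and no Havcr2, with neither, and with Havcr2. Lines join the subsets of 1 library. Ccl3, Ccl4 and Ccl5 are higher with Havcr2 in all 6 libraries, and Xcl1 is lower with Havcr2 in the 5 treated libraries.

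Cycling CD8 T cells, those with a UMI of Mki67 or Top2a, were compared with the rest of the class without a test. Ccl5 was at 4395, 4984, 5841, 7463, 6945 and 4875 CPM in cycling cells and at 4669.8, 7007, 7633, 9072, 9301 and 6738 CPM in the others, lower in cycling cells in 6 of 6 libraries. Ccl3 was at 142, 314, 421, 713, 677 and 539.7 CPM and 239, 358, 253, 600.3, 663 and 731 CPM, with cycling cells higher in 3 libraries and lower in 3.

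Single cells were also read for pairs of ligands, with each cell thinned to 1000 UMIs. Among CD8 T cells with a UMI of Ccl3, 60.6% to 84.3% had Ccl4, against 23.0% to 46.8% of CD8 T cells without Ccl3, higher in 6 of 6 libraries. The shares were 73.4% to 86.5% and 46.6% to 61.2% in NK cells (5 of 5 libraries, leaving out the control), 55.7% to 71.8% and 14.4% to 20.7% in neutrophils (6 of 6), and 46.1% to 83.1% and 10.8% to 18.5% in conventional CD4 T cells. Cells with Xcl1 had less Ccl5. Of the CD8 T cells, 47.8% to 62.5% of those with Xcl1 had Ccl5, against 74.8% to 86.4% of those without, lower in 6 of 6 libraries. The control's share, the highest at 62.5%, rests on an expected 2.37 cells with Xcl1, and the treated libraries had 47.8% to 60.9%. CD8 T cells with Xcl1 had Ccl3 in 21.0% to 29.4% of cells and those without in 10.8% to 25.8%, higher with Xcl1 in 6 of 6 libraries, the control included. With 2FF alone the 2 shares were 26.0% and 25.8%. The share with Ccl3 was higher beside Xcl1 in 1 of 5 libraries in NK cells and in 0 of 6 in conventional CD4 T cells. In NK cells the shares for Ccl5 were 65.3% to 86.1% and 87.5% to 94.1%, lower in 5 of 5 libraries. CD8 T cells with Ifng, the interferon of activated T cells, had Ccl3 in 22.2% to 37.2% of cells and those without in 8.78% to 19.4%. Xcl1 was found in 1.95% to 3.73% of CD8 T cells with Ifng and in 1.96% to 3.93% of those without. It was higher with Ifng in 3 of 6 libraries in CD8 T cells and in 3 of 5 in NK cells. Ccl4 was found more often beside Xcl1 in 3 of 6 libraries in CD8 T cells, 0 of 5 in NK cells and 1 of 6 in conventional CD4 T cells. These are shares of cells within libraries and carry no test, and the intervals of the single shares cover counting error only.

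**Figure D4:**
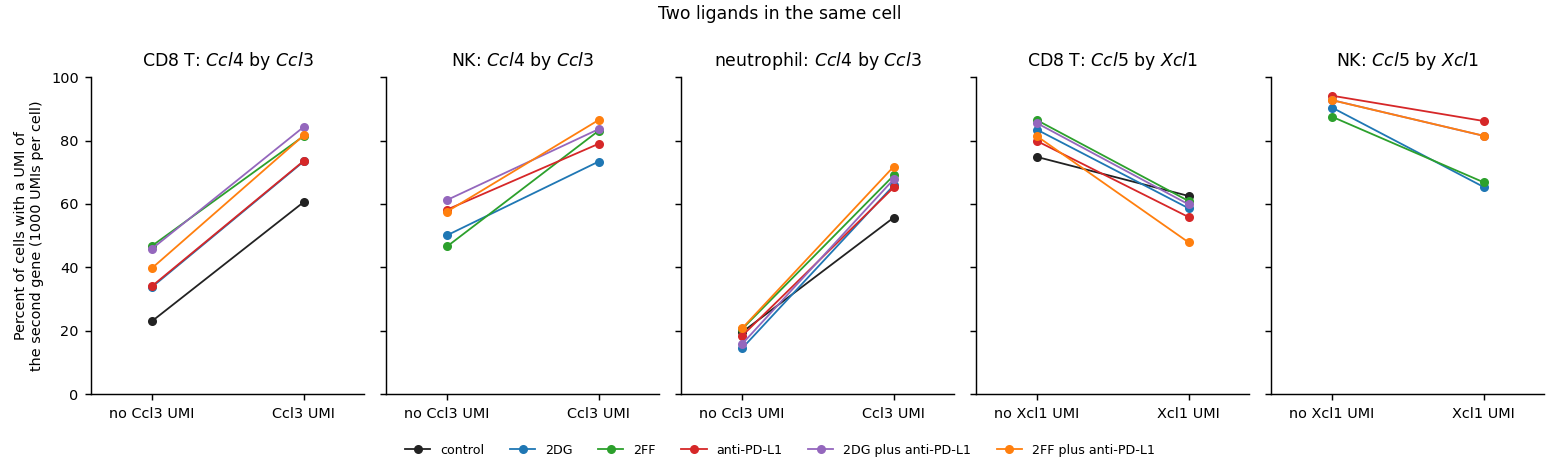
Pairs of points give, per library, the percentage of cells with a UMI of the second gene among cells with and without the first, each cell thinned to 1000 UMIs. Ccl4 is found more often beside Ccl3, and Ccl5 is found less often beside Xcl1.

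With 1 mouse per treatment, no p is given between treatments, an additive fit of antibody and inhibitor over the 6 libraries was not run, and all 5 comparisons share the control library. The values below are log2 ratios of CPM + 5 against control, in the order of libraries given above. In CD8 T cells the ratios were 0.77, 0.81, 1.72, 1.76 and 1.62 for Ccl3, 0.48, 0.63, 1.39, 1.42 and 1.11 for Ccl4, 0.40, 0.55, 0.87, 0.82 and 0.29 for Ccl5 and 0.67, 1.17, 0.14, 1.46 and 1.53 for Xcl1. All 20 were above 0, and the medians over all genes with enough UMIs were -0.003 to 0.04. The share of all genes above 0 in the 5 comparisons was not computed. The 5 Xcl1 ratios rest on 38 UMIs in 9 of the control's 124 CD8 T cells, 16 of them in 1 cell. The 95% counting interval of that control level was 28.8 to 55.9 CPM, and the level with 2DG plus anti-PD-L1 lay within it. Of the genes with at least 50 UMIs, 3.13%, 2.63%, 4.08%, 3.38% and 3.31% were 2-fold or more apart in these comparisons, and Ccl3, Ccl4 and Xcl1 passed that size in 3 of 5 and Ccl5 in 0 of 5. The exact 95% counting interval of the Ccl3 ratio, without the added 5, was 1.57 to 2.00 for 2FF and 0.57 to 1.01 for anti-PD-L1. In NK cells the ratios were 1.74, 0.98, 2.20, 2.04 and 2.27 for Ccl3 and 1.81, 1.36, 2.51, 2.18 and 2.26 for Ccl4, all above 0, while those for Ccl5 were 0.35, 0.24, 0.34, -0.12 and 0.33 and those for Xcl1 -0.36, 0.02, -0.15, 1.16 and -0.28, on both sides of 0. With 1 more marker asked of each cell the Xcl1 ratio with 2FF was -0.16, and none of the 5 was above 0. Genes with at least 50 UMIs in the NK comparisons numbered 4645, 5086, 5781, 3979 and 4729. Of these, 321, 316, 520, 261 and 280 were 2-fold or more above the control and 109, 113, 168, 82 and 91 as far below it. These intervals hold no spread between mice.

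In phagocytes Ccl3 and Ccl5 went in opposite directions. Macrophage Ccl3 ratios were -1.44, -1.52, -0.61, -1.26 and -0.82 and Ccl5 ratios 2.25, 2.42, 3.53, 3.29 and 2.58. Here 2.40%, 2.47%, 4.74%, 3.83% and 3.02% of genes were 2-fold or more apart, and Ccl5 was so in all 5 comparisons. Ccl4 ratios in macrophages were -0.19, 0.29, 1.18, 1.04 and 0.95. In neutrophils the ratios were -0.78, -1.82, -0.26, -0.62 and -0.45 for Ccl3, 0.57, -1.16, 0.25, 0.58 and 0.76 for Ccl4 and 2.89, 2.87, 2.28, 3.64 and 2.18 for Ccl5, with 9.11%, 12.4%, 10.4%, 11.6% and 7.21% of genes 2-fold or more apart. Ccl3 in B cells was below the control in the 4 comparisons with enough UMIs, with a median of -0.67. Ccl5 was also higher in the B cells of all 5 treated libraries, where its values are given above.

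Markers of the other lineages moved with these values. The summed level of the 8 T cell markers in macrophages was 15.3, 53.6, 51.4, 45.1, 82.3 and 36.0 CPM and in neutrophils 30.2, 185, 142, 99.5, 184 and 50.2 CPM, lowest in the control in both, with all 8 detected in every library. In macrophages without a UMI of any T cell marker (1024, 973, 1038, 1280, 1379 and 1286 cells), Ccl5 was at 82.1, 439, 533, 1154, 978 and 586 CPM, about as in all macrophages. The summed level of the 8 neutrophil markers in macrophages was 524, 78.5, 165, 81.3, 94.9 and 95.7 CPM, highest in the control. In macrophages without a UMI of any neutrophil marker (339, 766, 752, 817, 1013 and 877 cells), Ccl3 was at 263, 103, 96.0, 201, 95.3 and 172 CPM, again highest in the control. For CD8 T cells the neutrophil markers summed to 101, 27.0, 244, 23.1, 52.4 and 98.9 CPM, and in cells without them (78, 1564, 1252, 1676, 1900 and 1039 cells) Ccl3 was at 229, 349, 339.5, 669.9, 684 and 648 CPM, lowest in the control. In neutrophils without a T cell marker Ccl5 was at 11.9, 43.6, 107, 128, 306 and 103 CPM, lower than in all neutrophils in 6 of 6 libraries.

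**Figure D5:**
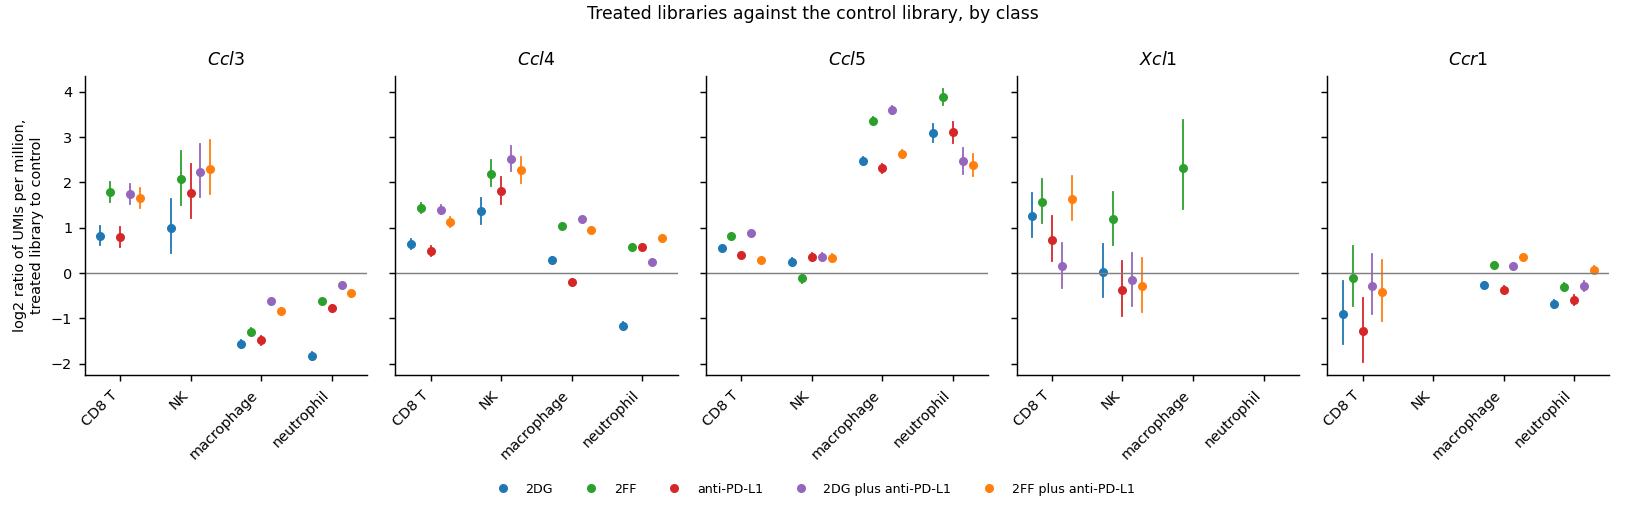
Log2 ratios of CPM against the control library, with no value added, are plotted for 5 treatments in CD8 T cells, NK cells, macrophages and neutrophils. Bars are exact 95% counting intervals and hold no spread between mice. Ccl3 lies above 0 in CD8 T and NK cells and below 0 in macrophages and neutrophils in all 5 comparisons.

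The combinations were also set against anti-PD-L1 alone, which both share. In CD8 T cells the log2 ratios for the combination with 2DG and then that with 2FF were 0.95 and 0.85 for Ccl3, 0.91 and 0.63 for Ccl4, 0.47 and -0.11 for Ccl5, and -0.54 and 0.86 for Xcl1. In macrophages they were 0.83 and 0.62 for Ccl3, 1.37 and 1.14 for Ccl4, and 1.28 and 0.33 for Ccl5. Ccl3 and Ccl4 were thus higher in both combinations in both classes, while Ccl5 and Xcl1 in CD8 T cells were not.

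Anti-PD-L1 was compared with no antibody in 3 pairs of libraries, at no inhibitor, 2DG and 2FF. In CD8 T cells the log2 ratios of Ccl3 were 0.77, 0.91 and -0.14, and those of Ccl4 were 0.48, 0.76 and -0.31. In macrophages those of Ccl3 were -1.44, 0.91 and 0.44, and those of Ccl5 were 2.25, 1.11 and -0.72. None of these 4 had the same sign in the 3 pairs. Over all 47 pairings of a member with a class that had enough UMIs in the 3 pairs, 6 were higher with the antibody in all 3, 2 were lower in all 3 and 39 were mixed. The 6 were Ccl3 (0.23 to 1.74), Ccl4 (0.07 to 1.81) and Ccl5 (0.10 to 0.45) in NK cells, Ccl4 in neutrophils (0.18 to 1.41), Xcl1 in monocytes (0.66 to 1.21) and Ccr1 in type 1 dendritic cells (0.07 to 1.45). The 2 were Xcl1 in NK cells (-1.44 to -0.18) and Xcr1 in type 1 dendritic cells (-0.64 to -0.23). These pairings were singled out after their values were seen, and the NK values at no inhibitor rest on the 23 control cells. The share of all genes with the same sign in the 3 pairs was not computed, so these counts are not read as a trait of the members. When each cell was thinned to 1000 UMIs, Ccl4 in NK cells at 2FF was -0.096 and Xcl1 in NK cells at 2DG was 0.18, so that neither kept its sign in the 3 pairs. Xcl1 in monocytes rests on few molecules, with 14 UMIs in the control's 2523 cells and 33 and 24 UMIs with 2DG and 2FF alone.

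Of 10 other CC chemokine genes, 9 were higher in myeloid cells and 1 in lymphoid cells in edgeR's test, with a median log2 fold change of -4.56 against -0.01 over all genes. The 4 largest were those of Ccl12 at -5.18 (SE 0.18, adjusted p = 2.83e-08), Ccl7 at -5.07 (SE 0.13, adjusted p = 6.33e-09), Ccl2 at -4.84 (SE 0.14, adjusted p = 1.27e-08) and Ccl8 at -4.83 (SE 0.19, adjusted p = 6.05e-08), which attract monocytes. Of 7 other receptors and scavengers of these chemokines, 5 were tested, of which 2 were higher in lymphoid and 3 in myeloid cells. Ccrl2, a receptor that binds chemerin, was lower in lymphoid cells by -3.21 (SE 0.17, adjusted p = 2.87e-07). Of 8 cytokine and effector genes that NK and CD8 T cells express with these chemokines, 6 were higher in lymphoid cells, led by Gzmb at 6.09 (SE 0.32, adjusted p = 3.25e-07) and Ifng at 6.08 (SE 0.28, adjusted p = 1.35e-07), and 2 were higher in myeloid cells, Tnf at -1.24 (SE 0.09, adjusted p = 2.09e-06) and Tnfsf9 at -2.16 (SE 0.13, adjusted p = 5.91e-07). Of 9 transcription factor genes linked to Ccl5 or Xcl1, 5 were higher in lymphoid cells, among them Tbx21 (T-bet) at 4.62 (SE 0.09, adjusted p = 3.63e-09), and 3 were lower, led by Zeb2 at -2.51 (SE 0.10, adjusted p = 6.56e-08). Of 13 genes of chemokine receptor signalling, 2 were higher in lymphoid cells and 9 lower. The shares over all genes are the 39.0% and 40.1% given above.

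Over 82 sums of a class in a library and 14323 genes, the genes outside the 6 and the gate markers whose levels were most like those of each member are given by Pearson's r of log2(CPM + 5), as a description. They were Ctsd (0.82), Hgsnat (0.81) and Selenon (0.79) for Ccl3, and Ctsd (0.78), Notch1 (0.75) and Dhrs7 (0.73) for Ccl4. For Ccl5 they were AW112010 (0.91), Heatr9 (0.86), which lies next to Ccl5 in the genome, and Peak1 (0.84). Xcl1 was most like Klrc1 (0.92), Klrc2 (0.91), which encode NKG2 receptors, and Samd3 (0.91). Ccr1 was most like Clec5a (0.92), Tarm1 (0.91) and Ltb4r1 (0.91), and Xcr1 like Plce1 (0.96), Fam149a (0.95) and Pianp (0.94). Between the members, r was 0.85 for Ccl3 and Ccl4 and 0.71 for Ccl5 and Xcl1. The sums share libraries and classes, and no p is given.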

How the data were processed

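The deposited matrices held raw UMI counts per gene and cell barcode, made by the authors with Cell Ranger (7.0.0 in the file headers and the methods, 3.1.0 in the submitters' processing notes) on mm10 from 10x 3′ libraries. Cells with at least 250 genes and at most 5% mitochondrial UMIs were kept, as in the methods. A cell joined the class with the largest share of its markers detected (at least 3 markers and 0.1 ahead of the next class). This scoring rule was set after the files could be read, and cells with close scores, which may be doublets, stayed ungated with no doublet caller run.

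UMI counts were summed per class and library (at least 20 cells) and tested across all genes with edgeR 4.0.16 in R 4.3.3 (quasi-likelihood test, TMM, library as block, Benjamini-Hochberg), with a threshold of 0.05, after a check on simulated data. The block holds the library, since both classes come from the same mouse. The 6 libraries stand for 6 treatments, so the spread holds treatment and mouse. Treatments had 1 library each and got no test. Python 3.11.15 and DESeq2 1.42.0 were also used. Intervals are exact (Clopper-Pearson for shares, binomial for ratios, 95%) and cover counting error only. Thinned shares are means over all draws. Members and gene lists were chosen with earlier results of these data known. List genes are named by largest change between the lymphoid and myeloid sums, at most 4 per list, and like genes are the 3 with the highest r among genes with at least 200 UMIs. Alternatives covered filters, gating, scaling, tools and libraries left out.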

Additional observations from a re-analysis of the deposited data

Results flagged for a closer look

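Ccl3 differed in the direction of its treated-to-control ratio between cell classes. In CD8 T cells the 5 treated libraries were all above the control, with a median log2 ratio of 1.62. In NK cells all 5 were above it, with a median of 2.04 that rests on 23 control cells. In macrophages all 5 were below the control, with a median of -1.26, and in neutrophils all 5 were below it, with a median of -0.62. Ccl3 was also below the control in all 5 in monocytes (median -1.53), type 2 dendritic cells (-1.97), mature dendritic cells (-3.25) and non-classical monocytes (-1.91) and in 4 of 4 in B cells (-0.67), and above it in all 5 in conventional CD4 T cells (1.28), while regulatory T cells and type 1 dendritic cells lay on both sides. The difference between these classes was not tested, and all ratios share 1 control library. Leaving out cells with a UMI of a neutrophil marker (CD8 T cells, NK cells and macrophages) or of a T cell marker (macrophages and neutrophils) kept the signs of Ccl3 in the classes in brackets. No such values are given for the other classes. The 8 neutrophil markers summed to 1114 CPM in the control's monocytes, 366 in its B cells and 320 in its mature dendritic cells. In the treated libraries the sums were 217 to 540, 11.5 to 152 and 8.28 to 181 CPM. The part of neutrophil transcripts in the Ccl3 ratios of these classes was not tested.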

How the results depend on the processing

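Of 655 recomputed contrasts of members, 602 kept their direction and their side of the threshold, and 23 of 43 contrasts did so under every alternative. The cause of the others was not tested. Of 1045 recomputed treatment ratios, 812 stayed within the reach of the first ratio's counting interval, 232 moved farther and 1 was reversed. Another sign was seen in 21, of which 20 were at most 0.66 in size at first and 1 was Xcl1 in NK cells with 2FF. GEO's labels give no replicate numbers, so the library was the block, since its classes come from the same mouse. Without this replicate block, Ccl3 in lymphoid against myeloid cells was -0.083, and calls were lost for NK against CD8 T cells (Ccl3 0.32, Ccl4 0.78, Ccl5 0.28), CD8 T against conventional CD4 T cells (Ccl3 -0.43, Ccl4 0.43, Xcl1 1.11), neutrophils against macrophages (Xcl1 1.4), monocytes against macrophages (Ccl3 0.48, Ccl5 -0.81, Ccr1 0.47) and type 1 against type 2 dendritic cells (Ccl3 -0.92, Ccl4 -0.87). Xcl1 in monocytes against macrophages was gained (1.99), and 1909 genes were called in place of 3275 between CD8 T and conventional CD4 T cells. With each class weighted equally, Ccl3 in lymphoid against myeloid cells was -0.12.

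With DESeq2, Xcr1 in CD8 T cells against macrophages was -0.18, NK against CD8 T was not called for Ccl3 (0.23) or Ccl5 (0.27), Xcl1 was called in monocytes against macrophages (2.04) and not in Havcr2 against Tcf7 cells (-0.92). With no filter on low counts, Ccr1 was called in NK against CD8 T cells (-0.50) and Havcr2 against Tcf7 cells (0.76), and Xcl1 in monocytes against macrophages (1.91). Without cells over 20000 UMIs, NK against CD8 T was not called for Ccl3 (0.23) or Ccl5 (0.19), type 1 against type 2 dendritic cells was not called for Ccl3 (-0.61), and 2588 genes were called there in place of 3906. With ambiguous cells kept, the NK call for Ccl3 was lost (0.26), Ccr1 was called in Havcr2 against Tcf7 cells (0.93), Ccl5 in type 1 against type 2 dendritic cells was -0.083, and lymphoid shares in treated libraries were 5.08% for Ccr1 and 11.3% for Xcr1. With 1 more marker, the NK call for Ccl5 was lost (0.20), the lymphoid share of Xcl1 was 83.6%, and Xcl1 in NK cells with 2FF was -0.16 and above control in 0 libraries. Thinning left Ccr1 in CD8 T cells above control in 1 library.

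Some alternatives were chosen after seeing the data. Leaving out cells with 3 markers of another lineage gave Xcr1 in CD8 T cells against macrophages -0.95, Ccl5 in NK against CD8 T cells 0.15, not called, Ccl5 in type 1 against type 2 dendritic cells -0.066, and called Xcl1 in monocytes against macrophages (2.52). Leaving out NK cells with a neutrophil marker left Xcl1 above control in 1 library.

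With each library left out in turn, edgeR gave lymphoid against myeloid 0.33 to 1.0 for Ccl3 and 0.013 to 0.51 for Ccl4 (both called without the control), NK against CD8 T cells 0.17 to 0.35 for Ccl3 and 0.21 to 0.41 for Ccl5, and type 1 against type 2 dendritic cells -1.03 to -0.63 for Ccl3 and -0.17 to 0.54 for Ccl5. Xcr1 in CD8 T cells against macrophages, -0.26 to 0.49, was below 0 without the 2FF or the anti-PD-L1 library. Xcl1 in neutrophils against macrophages, 1.17 to 2.05, was not called without the 2DG, anti-PD-L1 or 2DG plus anti-PD-L1 library, and in monocytes against macrophages, 1.38 to 2.73, it was called without the control or the 2FF library. Depth limits Xcl1 and Xcr1, whose UMIs are few outside NK, T and type 1 dendritic cells, and the control's NK and Tcf7+ CD8 T cells, which number 23 and 20.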

Other observations

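Conventional CD4 T cells with a UMI of Eomes or Gzmk, genes of cytotoxic cells, were split from the others. Ccl5 was at 3743 to 7755 CPM in the former and 304 to 1564 CPM in the latter, without overlap. Ccl3 was at 438, 931, 659.5, 1322, 1581 and 1008 CPM and 107, 319, 124, 1050.0, 622 and 603 CPM, higher in the former in 6 of 6 libraries. Xcl1 was at 0, 2.40, 17.4, 11, 239.7 and 46.6 CPM and 42.0, 34.5, 64.0, 10.8, 67.6 and 37.2 CPM, higher in the former in 3 libraries and lower in 3, with no UMI counted in the control's 71 such cells. With 2DG plus anti-PD-L1 these levels rest on 6 and 25 UMIs. With 2FF alone they rest on 156 and 161 UMIs, of which 1 cell held 142, so that comparison depends on the side of this cell. In the control, neutrophil markers summed to 853 CPM in conventional CD4 T cells and to 23.1 to 91.0 CPM in the treated libraries, and their part in the Ccl3 level was not tested.

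Plasmacytoid dendritic cells, the main source of type I interferon, reached 20 cells in 3 libraries and had Ccl4 at 1106 CPM with 2DG, 1142 CPM with anti-PD-L1 and 2869.8 CPM with 2DG plus anti-PD-L1. Their Ccl3 was at 31.0, 71.1 and 163 CPM in these libraries. Non-classical monocytes had Ccl4 at 1222, 134, 155, 501, 237 and 317 CPM, highest in the control. In the monocytes of the 2FF plus anti-PD-L1 library Xcl1 was at 11.2 CPM, with a UMI in 0.361% of cells.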
